A study of Homo sapiens with 6 samples.

Results

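RNA-Seq values of 10 genes of the methionine cycle and of adenosine handling were examined in OVCAR8 cells, a line of high grade serous ovarian cancer. The 10 genes (AHCY, AHCYL1, AHCYL2, MAT2A, MAT2B, MTR, MTRR, MTAP, ADK and SLC29A1) were taken from a list of names, since DZNep is an adenosine analogue that blocks AHCY. The list was chosen with earlier results of these data known. All 10 were among the 14930 genes of the deposited table, and all 10 passed the filter on low values that left 9671 genes for testing. The 6 samples formed 3 groups of 2 replicates, each collected after 72 hours. Control cells received DMSO. DZNep cells received 5 μM DZNep (the study's methods give μM, whereas the sample labels print mM). The shEZH2 cells carried a doxycycline-inducible EZH2 hairpin and received 1 μg/mL doxycycline (again mg/mL in the sample labels). The hairpin line was made with a single hairpin, number 2 of the study. Whether the control RNA came from the parental or the hairpin line is not given in the sources used here. Doxycycline without the hairpin was not analysed here, so the drug and the hairpin cannot be told apart. Nothing says that replicates were separate cultures, and p-values measure the spread between these samples, which may be technical.

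The methionine cycle supplies the methyl groups of the cell. Methionine is joined to ATP by methionine adenosyltransferase to form S-adenosylmethionine (SAM), methyltransferases such as EZH2 use SAM and release S-adenosylhomocysteine (SAH), and AHCY splits SAH into homocysteine and adenosine. Homocysteine is remethylated to methionine by MTR with a methyl group from folate, while adenosine is phosphorylated by ADK or exchanged with the medium through the transporter SLC29A1. SAH inhibits methyltransferases when it accumulates, which is why a blocker of AHCY such as DZNep is used against histone methylation.

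Short sequences bear on these comparisons, the target of the hairpin and a repeated motif of the MAT2A mRNA. The hairpin target is shown because it defines the shEZH2 group. It lies in coding exon 4 of EZH2 at chr7:148832703-148832723 (GRCh38, minus strand), and the full target occurred in transcripts of EZH2 and of no other GENCODE v44 gene. The sense strand of the target (capitals mark the letters complementary to bases 2 to 8 of the guide) and the guide (capitals mark those bases, the seed) read 5′ to 3′ as follows.
EZH2 hairpin 2 target: ccaacacaagtcaTCCCATTa
EZH2 hairpin 2 guide: tAATGGGAtgacttgtgttgg
The seed match TCCCATT, searched on the sense strand of 1 canonical transcript per gene, was found in 22.1% of 9027 tested genes that had such a transcript. Of the 10 genes, AHCYL1 and MTR held 1 match each and the other 8, ADK included, held none. A match is a description of letters and not a binding site.

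The MAT2A sites are shown because MAT2A, which encodes the catalytic subunit that makes SAM outside the liver, is known to be controlled through hairpins in its 3′ UTR that the RNA methyltransferase METTL16 recognises, and METTL16 was measured in the same samples. The motif TACAGAGAA and its variant TACAGAAAA were searched on the sense strand of canonical transcripts. They occurred 6 times in MAT2A, each time in the 3′ UTR within exon 9, and in none of the other 9 genes. At least 1 match was present in 9.07% of the 9027 transcripts, and as many as 6 in 0.0111% of them, which is MAT2A alone. The sites are on the plus strand of chromosome 2 (GRCh38), with the motif in capitals and its position before each.
chr2:85543812-85543820: tggcgtaggcTACAGAGAAgccttcaagc
chr2:85544599-85544607: tgtgatgtcaTACAGAGAAgtcacagggc
chr2:85544784-85544792: ctggtgtagcTACAGAGAAaccagcttcc
chr2:85544899-85544907: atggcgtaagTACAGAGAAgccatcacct
chr2:85545014-85545022: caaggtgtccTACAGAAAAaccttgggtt
chr2:85545122-85545130: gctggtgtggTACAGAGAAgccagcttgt
The variant stands at the fifth site, and the other five hold TACAGAGAA.

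The deposited values are whole numbers scaled to nearly the same total in each sample (999956 to 1000068), so read depth is unknown and no counting interval is given. Values below are as deposited. Log2 fold changes come from limma on log2(value + 1) after TMM scaling (factors 0.920 to 1.12), with Benjamini-Hochberg adjusted p-values over all 9671 genes, and a gene is called at an adjusted p under 0.05. On this scale the change of low genes is understated. EZH2, at 36 and 42 in control, fell to 26 and 26 under DZNep and to 18 and 18 in shEZH2 cells (log2 fold changes -0.63 and -1.12, adjusted p = 0.026 and 0.016 from limma). The first call was lost without control replicate 2, DZNep replicate 2 or either shEZH2 sample (adjusted p 0.070 to 0.092 from limma), the second without either shEZH2 sample (0.17 and 0.21 from limma). Of 11 serous ovarian markers, 8 were listed. KRT7, KRT8, KRT18 and MSLN were at 36 or above in every sample and PAX8 ranged from 10 to 19, but WT1 was at 1 or 2 in all samples, EPCAM ranged from 5 to 12, CDH1 from 0 to 8, and MUC16, KRT19 and SOX17 were not listed. Of the 5 serous markers tested, 2 rose (KRT8 and KRT18) and 2 fell (PAX8 and MSLN) with DZNep, and none was called with shEZH2. Of 7 markers of other cell types, 5 were not listed (PTPRC, CD3E, PECAM1, CDH5 and ALB) and VWF ranged from 0 to 2. CD68, on this list as a macrophage marker, was at 70 and 65 in control, although all samples were of the OVCAR8 line. CD68 fell to 18 and 15 under DZNep and to 32 and 28 in shEZH2 cells (log2 fold changes -2.04 and -1.19, adjusted p = 0.00043 and 0.021 from limma). The order of groups was that of ADK and MTR below. The origin of the CD68 RNA and any link to those results were not tested. Across genes, the difference between the replicates had a standard deviation of 0.14 (log2) in shEZH2 cells, against 0.43 in control and 0.45 in DZNep cells, and the fit pools these spreads. In bulk RNA, fewer cells of a kind and less RNA per cell cannot be told apart.

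DZNep changed 3 of the 10 genes. MTR and ADK fell to about a similar extent, and MTRR rose. This is 30% of the members, against 42.7% of all tested genes called with DZNep (22.4% higher and 20.4% lower), so calls were not more frequent among the members than among all tested genes. By the limits used in the study (log2 fold change beyond 1 in size, unadjusted P under 0.05), MTR and ADK were called, 2 of 10 genes, where 22.3% of all tested genes were. With shEZH2 only ADK was called, 1 of 10 genes, against 8.44% of all tested genes (3.91% higher and 4.53% lower). No member passed the study's limits with shEZH2, and 5.30% of all genes did. Both contrasts use the same control samples. The call of ADK with shEZH2 depended on counting both shEZH2 samples as replicates. With their mean used as a single sample, no member was called with shEZH2, and 39 of all 9671 genes were. After TMM scaling, the DZNep and control samples did not overlap for 7 of the 10 genes (65.6% of all tested genes) and the shEZH2 and control samples for 8 of 10 (65.1% of all tested genes). The median log2 fold change of the 10 genes was -0.06 with DZNep and -0.07 with shEZH2, where the medians of all tested genes were 0.02 and -0.01.

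**Figure D1:**
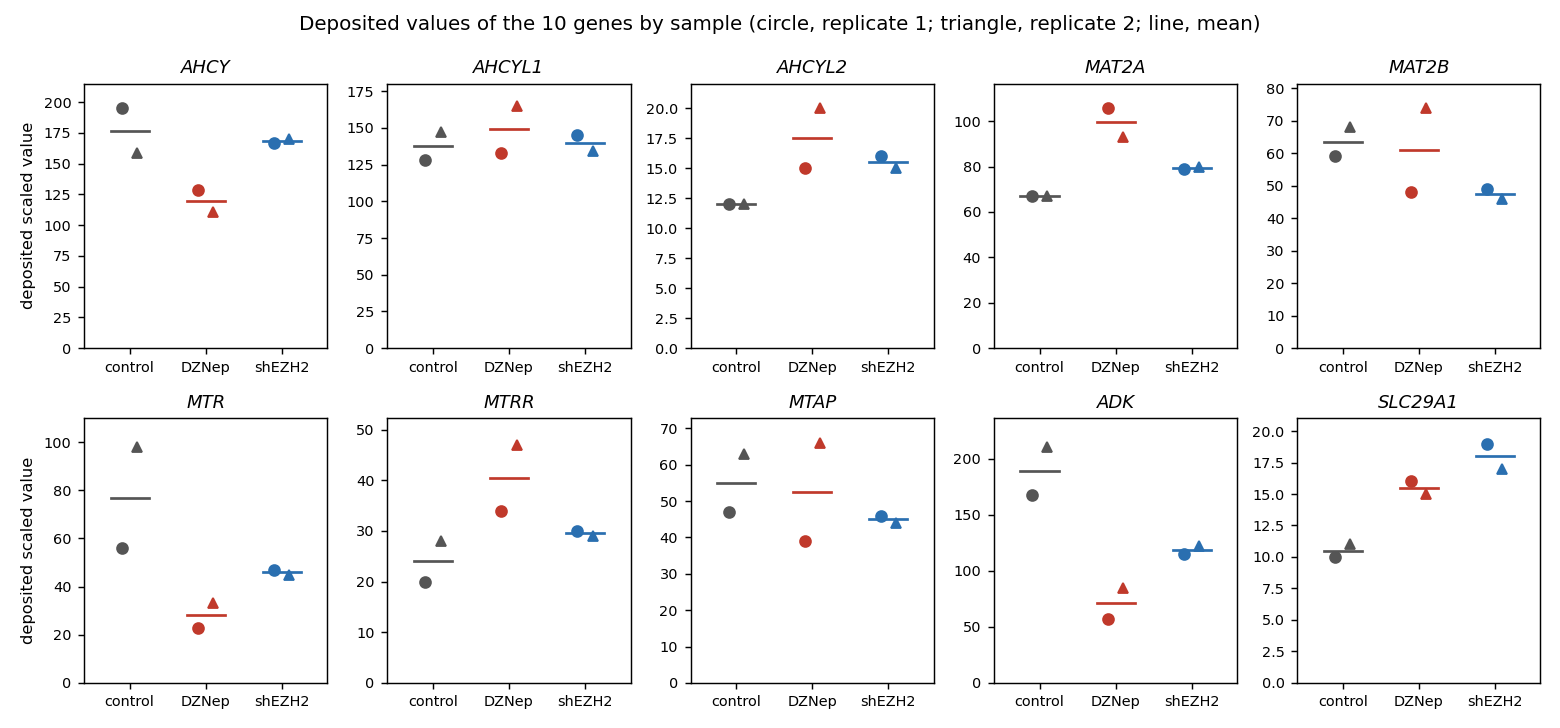
Deposited scaled values (linear axis from 0) of the 10 genes in each of the 6 samples, with replicate 1 as a circle, replicate 2 as a triangle and the group mean as a line. For MTR and ADK all DZNep samples lie lowest and all control samples highest, while for MTRR and MAT2A the control samples lie lowest.

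AHCY, the SAH hydrolase that DZNep blocks, is encoded on chromosome 20 (34280268 to 34311802, minus strand). Its values were 195 and 159 in control, 129 and 111 under DZNep, and 167 and 170 in shEZH2 cells. Both DZNep samples lay below both control samples, whereas the shEZH2 values lay between the control values. Under DZNep the log2 fold change was -0.62 (standard error 0.22, 95% confidence interval -1.13 to -0.12, adjusted p = 0.051 from limma), just short of a call. With shEZH2 it was -0.11 (interval -0.62 to 0.40, adjusted p = 0.77 from limma). Without control replicate 2 the DZNep value was -0.85 (limma, adjusted p = 0.023) and without DZNep replicate 1 it was -0.86 (limma, adjusted p = 0.025). Without control replicate 1 it was -0.40, and over the 16 alternatives tried its adjusted p ran from 0.0021 to 0.20. The shEZH2 value changed sign, to 0.11, without control replicate 1. Replicate 2 lay below replicate 1 by a similar amount in control (-0.45, log2) and DZNep cells (-0.47), which the fit as reported does not use. With a block for replicate number, AHCY was called with DZNep (limma, adjusted p = 0.0021), and calls over all genes rose from 4134 to 5419. No label says that these numbers pair the samples. Exons of AHCY overlap those of an unnamed gene on the same strand over 6.47% of the transcript length, so some reads may be shared.

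AHCYL1 and AHCYL2 encode proteins related to AHCY in sequence. AHCYL1 is known as a regulator of the inositol trisphosphate receptor. AHCYL1 (chromosome 1, 109984765 to 110023742) had values of 128 and 147 in control, 133 and 165 under DZNep, and 145 and 134 in shEZH2 cells. The 3 groups overlapped before scaling, with log2 fold changes of 0.04 with DZNep (interval -0.31 to 0.38) and -0.03 with shEZH2 (interval -0.37 to 0.32), and the sign of the second turned with the values as deposited. AHCYL2 (chromosome 7, 129225030 to 129430211) was listed low, at 12 and 12 in control, 15 and 20 under DZNep, and 16 and 15 in shEZH2 cells. Its treated samples all lay above the control samples, with log2 fold changes of 0.43 (interval -0.005 to 0.86, adjusted p = 0.10 from limma) and 0.30 (interval -0.14 to 0.73, adjusted p = 0.33 from limma). Because values were rounded, its log2 ratio of means under DZNep could lie anywhere from 0.44 to 0.65. No stretch of 50 bases in the canonical transcripts of AHCYL1 or AHCYL2 was shared with transcripts of another gene.

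SAM synthesis was represented by MAT2A and by MAT2B, the regulatory subunit that binds it. MAT2A (chromosome 2, 85539168 to 85545281) had values of 67 and 67 in control, 106 and 93 under DZNep, and 79 and 80 in shEZH2 cells. The groups did not overlap, with DZNep highest and control lowest. Under DZNep the log2 fold change was 0.49 (standard error 0.19, interval 0.04 to 0.93, adjusted p = 0.074 from limma) and 0.20 with shEZH2 (interval -0.25 to 0.64, adjusted p = 0.54 from limma), neither of them called. It was 0.70 (limma, adjusted p = 0.021) without DZNep replicate 2 and 0.27 (limma, adjusted p = 0.31) without DZNep replicate 1, the lowest and highest adjusted p of its 16 alternatives being 0.017 and 0.31. METTL16, which binds the MAT2A sites printed above, had values of 23 and 23 in control, 39 and 41 under DZNep, and 37 and 39 in shEZH2 cells. METTL16 rose under DZNep by a log2 fold change of 0.70 (limma, standard error 0.18, adjusted p = 0.016), a call lost without control replicate 2, DZNep replicate 1 or either shEZH2 sample (adjusted p 0.058 to 0.064 from limma), and its value with shEZH2 was 0.65 (limma, adjusted p = 0.061), called in 5 of 16 alternatives, whose adjusted p ran from 0.0092 to 0.48. MAT2A exons overlap those of GGCX on the opposite strand over 20% of the transcript, and 2.75% of its stretches of 50 bases occur in transcripts of other genes, MAT2AP1 among them. The libraries were stranded, but whether strand was used in counting is not given in the sources used here.

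MAT2B (chromosome 5, 163503114 to 163519558) binds MAT2A and adjusts its activity. Its values were 59 and 68 in control, 48 and 74 under DZNep, and 49 and 46 in shEZH2 cells. Both shEZH2 samples lay below the control samples, while the DZNep samples lay on either side of them. The log2 fold change was -0.46 with shEZH2 (interval -0.88 to -0.04, adjusted p = 0.15 from limma) and -0.16 with DZNep (interval -0.58 to 0.26, adjusted p = 0.52 from limma), so MAT2B was not called in either contrast. The DZNep value turned to 0.02 without DZNep replicate 1.

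Methionine synthase, MTR, transfers the methyl group from folate to homocysteine with cobalamin as cofactor, and MTRR, its reductase, restores the cofactor when it has been oxidised. The partners went in opposite directions with DZNep. MTR (chromosome 1, 236795260 to 236921278) had values of 56 and 98 in control, 23 and 33 under DZNep, and 47 and 45 in shEZH2 cells. The groups did not overlap and were ordered control, shEZH2, DZNep, although the control samples themselves differed widely. MTR fell by 63.8% with DZNep, a log2 fold change of -1.47 (standard error 0.24, interval -2.01 to -0.92, adjusted p = 0.0022 from limma), and was called under all 16 alternatives. Among all tested genes this was the 561st lowest change. With shEZH2 the log2 fold change was -0.72 (interval -1.27 to -0.18, adjusted p = 0.093 from limma). It was -1.04 (limma, adjusted p = 0.025) without control replicate 1 and -0.41 (limma, adjusted p = 0.37) without control replicate 2, the extremes of its size over the alternatives, and its adjusted p ran from 0.0031 to 0.45.

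MTRR (chromosome 5, 7851186 to 7906025) had values of 20 and 28 in control, 34 and 47 under DZNep, and 30 and 29 in shEZH2 cells. Both DZNep samples lay above both control samples, and the shEZH2 samples lay between these groups. MTRR rose by 58.3% with DZNep, a log2 fold change of 0.66 (standard error 0.19, interval 0.22 to 1.11, adjusted p = 0.026 from limma). With shEZH2 it was 0.26 (interval -0.19 to 0.70, adjusted p = 0.42 from limma). The DZNep call was lost in 7 of 16 alternatives, whose adjusted p ran from 0.0037 to 0.099. It was lost without control replicate 1 (0.51, adjusted p = 0.099 from limma), without DZNep replicate 2 (0.55, adjusted p = 0.078 from limma), and without shEZH2 replicate 1 or replicate 2 (adjusted p = 0.086 and 0.084 from limma).

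MTAP splits methylthioadenosine, a product of polyamine synthesis from SAM, and so returns adenine and a precursor of methionine. The gene (chromosome 9, 21802636 to 21937651) lies next to CDKN2A and is often lost together with it in tumours. In OVCAR8 cells MTAP was listed at 47 and 63 in control, 39 and 66 under DZNep, and 46 and 44 in shEZH2 cells, so its RNA was present in all 6 samples. The DZNep values lay on either side of the control values. Log2 fold changes were -0.17 with DZNep (interval -0.66 to 0.32, adjusted p = 0.55 from limma) and -0.32 with shEZH2 (interval -0.81 to 0.17, adjusted p = 0.36 from limma), and the first turned to 0.08 without DZNep replicate 1. CDKN2A was also present, with values from 245 to 338. CDKN2B, on its other side, was listed at 14 and 20 in control, 6 and 11 under DZNep, and 14 and 13 in shEZH2 cells, and fell with DZNep by 1.02 on the log2 scale (limma, adjusted p = 0.012). This call was lost with the values as deposited (limma, adjusted p = 0.053). Of the MTAP stretches of 50 bases, 7.96% also occur in transcripts of other genes.

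ADK, adenosine kinase, returns adenosine to AMP and thereby removes a product of AHCY. It had the largest change of the 10 genes with DZNep. ADK (chromosome 10, 74151202 to 74709963) had values of 168 and 211 in control, 57 and 85 under DZNep, and 115 and 122 in shEZH2 cells. The groups did not overlap and followed the order control, shEZH2, DZNep, as for MTR. ADK fell by 64.5% with DZNep, a log2 fold change of -1.49 (standard error 0.18, interval -1.90 to -1.08, adjusted p = 0.00062 from limma), and was called under all 16 alternatives. It fell by 39.0% with shEZH2, a log2 fold change of -0.71 (standard error 0.18, interval -1.12 to -0.30, adjusted p = 0.048 from limma). The shEZH2 call was lost in 8 of 16 alternatives, in which the size stayed between -0.78 and -0.62, and its adjusted p over all 16 ran from 0.0013 to 0.44. It was lost without control replicate 2 (limma, adjusted p = 0.16), without shEZH2 replicate 1 (0.44 from limma) or replicate 2 (0.30 from limma), and with the values as deposited (0.11 from limma).

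SLC29A1, or ENT1, is an equilibrative nucleoside transporter of the plasma membrane. SLC29A1 (chromosome 6, 44219553 to 44234142) was listed low, at 10 and 11 in control, 16 and 15 under DZNep, and 19 and 17 in shEZH2 cells. All treated samples lay above the control samples, and here the shEZH2 samples were the highest. Under DZNep the log2 fold change was 0.46 (interval -0.005 to 0.92, adjusted p = 0.10 from limma) and 0.68 with shEZH2 (interval 0.22 to 1.14, adjusted p = 0.071 from limma), neither called. With shEZH2 it was called without DZNep replicate 1 (limma, adjusted p = 0.039) or replicate 2 (0.035 from limma), with its adjusted p between 0.014 and 0.47 over the alternatives. With DZNep it was called without DZNep replicate 2 (0.61, adjusted p = 0.049 from limma), in a range from 0.045 to 0.32. Because of rounding, its log2 ratio of means in shEZH2 cells could lie from 0.67 to 0.89.

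**Figure D2:**
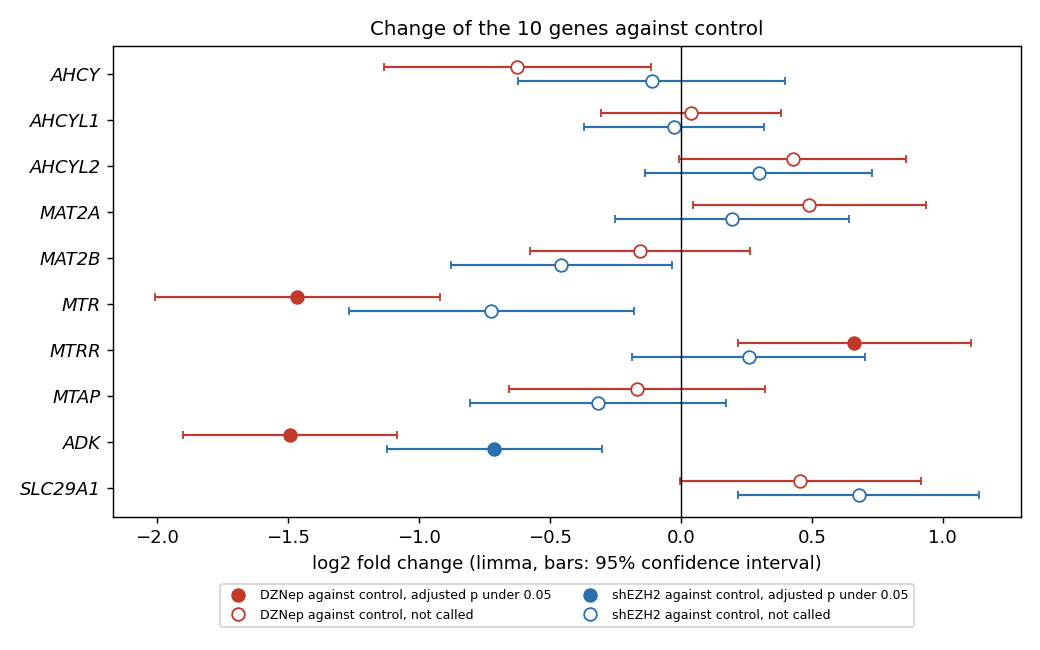
Log2 fold change of each of the 10 genes against control with DZNep (red) and with shEZH2 (blue), with bars for the 95% confidence interval and filled points for an adjusted p under 0.05 from limma. MTR, MTRR and ADK are filled for DZNep and ADK alone for shEZH2, and the DZNep points of MTR (-1.47) and ADK (-1.49) lie farthest to the left.

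The groups were then compared directly, shEZH2 against DZNep. ADK was higher in shEZH2 than in DZNep cells by 0.78 on the log2 scale (standard error 0.18, interval 0.37 to 1.19, adjusted p = 0.035 from limma), and was the 1 gene of 10 called, where 9.30% of all tested genes were. This call was lost in 5 of 16 alternatives, among them the values as deposited (limma, adjusted p = 0.082). It was lost without DZNep replicate 1 (0.62, adjusted p = 0.090 from limma) and without shEZH2 replicate 1 or replicate 2 (adjusted p = 0.24 and 0.35 from limma), and its adjusted p ran from 0.00046 to 0.35 over the alternatives. MTR differed by a similar 0.74 (interval 0.20 to 1.29, adjusted p = 0.087 from limma), and was called without control replicate 1 or replicate 2 (adjusted p = 0.030 from limma in each), in a range from 0.0026 to 0.42. For AHCY the difference was 0.51 (interval 0.004 to 1.02, adjusted p = 0.18 from limma). The other 7 genes had differences between -0.40 (MTRR) and 0.22 (SLC29A1), none called, and their intervals reached from -0.85 to 0.68. Of these 7 intervals, that of MTRR (-0.85 to 0.04) was the only one to hold a difference as large as that of ADK.

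**Figure D3:**
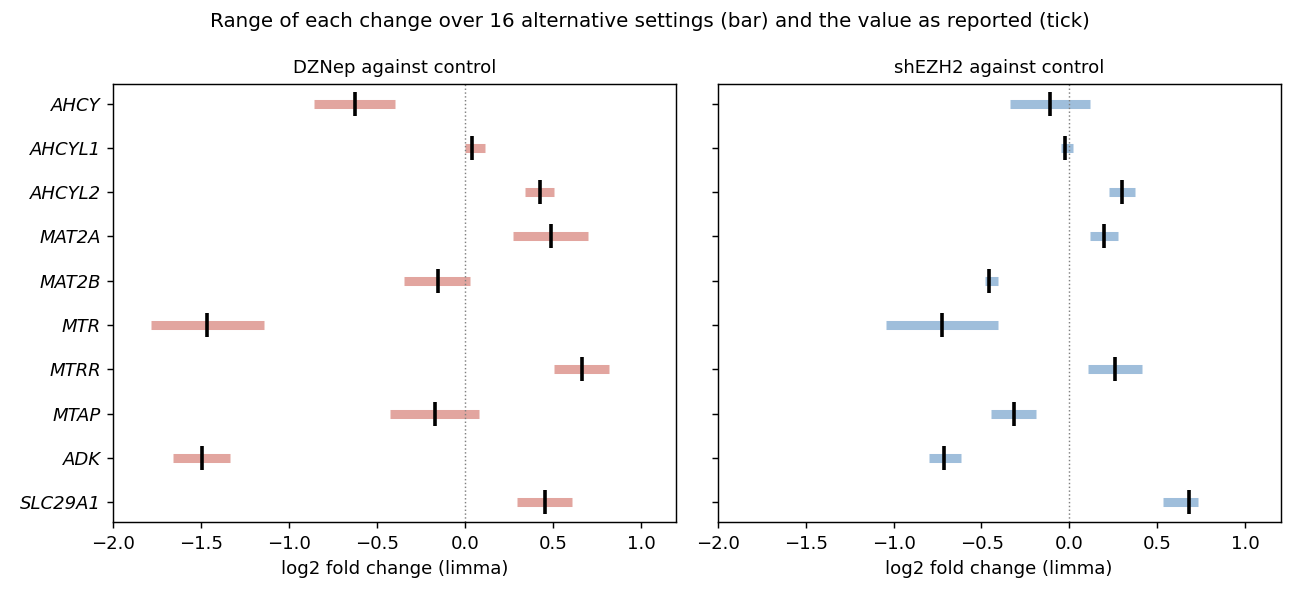
Range of the log2 fold change of each gene over 16 alternative settings (bar) and its value as reported (black tick), for DZNep (left) and shEZH2 (right) against control. The bars of MTR (-1.79 to -1.15) and ADK (-1.66 to -1.34) with DZNep lie below those of all other genes, and the bars of MAT2B and MTAP with DZNep and of AHCY and AHCYL1 with shEZH2 cross 0.

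Genes whose profile over the 6 samples was closest to that of AHCY and of ADK were found by the root mean square difference of log2 values, each centred on its control mean. Nearest to AHCY were TSPO (0.036), FAM53B (0.039) and SAC3D1 (0.040). TSPO, a protein of the outer mitochondrial membrane, had values of 277 and 228 in control, 184 and 150 under DZNep, and 234 and 246 in shEZH2 cells. Nearest to ADK were EIF4A2 (0.053), CYP2R1 (0.068) and KIAA0368 (0.073). EIF4A2, an RNA helicase of translation initiation, had values of 384 and 504 in control, 132 and 211 under DZNep, and 272 and 269 in shEZH2 cells. These likenesses rest on 6 samples.

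The wider pathway was described by 8 further lists with 101 genes, of which 85 were in the table and 71 were tested. With DZNep 15 of the 71 rose and 21 fell, which is 50.7% against 42.7% of all tested genes. The filter on low values removed the rest. A gene that passed it through 1 group alone was more likely to differ. The lists were also chosen with earlier results of these data known. The counts of both contrasts are therefore a description. With no filter, 39 of the 85 were called with DZNep, as were 5298 of all 14930 genes. With shEZH2 4 rose and 8 fell, which is 16.9% against 8.44%. The counts of each list below stand beside these shares of all tested genes, 42.7% with DZNep and 8.44% with shEZH2. With the mean of the shEZH2 samples used as a single sample, none of the 71 was called with shEZH2. The naming rule chose from these lists genes already called in these data with the largest changes, some of them given below with no test. How many of their calls held in refits of the same samples is thus no support. Of their 25 DZNep calls, 3 were lost under at least 1 alternative. Leaving out either shEZH2 sample ended each of their 12 shEZH2 calls, and 11 of their 12 direct calls were lost under at least 1 alternative. The median log2 fold change of the 71 genes was -0.01 with DZNep and -0.02 with shEZH2, close to the medians of all genes given above. With the values as deposited, in place of TMM scaling, 66.0% of all genes called with shEZH2 were higher, against 46.3% with it, so the balance of directions depends on the scaling.

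Other enzymes of the methionine cycle and transsulfuration had 5 tested genes, of which 1 rose (METTL16) and 1 fell with DZNep, and none was called with shEZH2. CBS, which takes homocysteine out of the cycle towards cysteine, had values of 95 and 95 in control, 57 and 52 under DZNep, and 91 and 92 in shEZH2 cells. CBS fell by 0.86 on the log2 scale with DZNep (limma, adjusted p = 0.0076), and was higher in shEZH2 than in DZNep cells by 0.76 (limma, adjusted p = 0.044). MAT1A, the liver form of the SAM synthetase, was not listed in the table. Nor were BHMT, which remethylates homocysteine with betaine, and its relative BHMT2.

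The methionine salvage and polyamine list had 13 tested genes, 3 higher and 4 lower with DZNep and 1 in each direction with shEZH2. SAT1, which acetylates polyamines for their breakdown, had values of 224 and 224 in control, 692 and 841 under DZNep, and 399 and 372 in shEZH2 cells. SAT1 rose with both, by 1.69 (limma, adjusted p = 0.0002) and 0.73 (limma, adjusted p = 0.028) on the log2 scale. SMS, spermine synthase, which uses decarboxylated SAM and releases the substrate of MTAP, fell from 287 and 346 to 106 and 162 under DZNep and to 194 and 201 in shEZH2 cells (log2 fold changes -1.33 and -0.72, adjusted p = 0.00092 and 0.046 from limma). PAOX, a polyamine oxidase, had values of 33 and 26 in control, 7 and 6 under DZNep, and 17 and 14 in shEZH2 cells. PAOX fell with DZNep (-2.08, adjusted p = 0.00061 from limma). Its shEZH2 value, -0.93, was not called (adjusted p = 0.056 from limma) but was in 7 of 16 alternatives. SMOX, spermine oxidase, was listed low, at 6 and 4, 15 and 15, and 8 and 8 in these groups, and passed the filter through the DZNep samples alone, so it is given with no test.

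Folate one-carbon supply had 18 tested genes, with 3 higher and 4 lower with DZNep and 1 higher with shEZH2. The genes named here were lower with DZNep. The 3 genes called higher are not among them, so no direction of the list is read from those named. MTHFD2 fell from 190 and 240 to 80 and 129 (-1.14, adjusted p = 0.0025 from limma), and ALDH1L2 from 20 and 35 to 4 and 6 (-2.28, adjusted p = 0.00045 from limma). Their shEZH2 values were -0.39 and -0.78, neither called. That of ALDH1L2 was -1.10 and called without control replicate 1 (limma, adjusted p = 0.028) and -0.47 without control replicate 2, with its adjusted p between 0.0058 and 0.44 over the alternatives. MTFMT, which formylates the mitochondrial initiator tRNA, was listed at 14 and 16 in control, 8 and 8 under DZNep, and 10 and 8 in shEZH2 cells. Without the control samples MTFMT would not have passed the filter on low values, so it is given with no test.

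Cobalamin handling, which provides the cofactor of MTR, had 5 tested genes, and 1 was called in each contrast. MMAB, which makes the form of cobalamin used in mitochondria rather than by MTR, had values of 88 and 78 in control, 20 and 20 under DZNep, and 46 and 48 in shEZH2 cells. MMAB fell by 2.07 (limma, adjusted p = 0.00024) and by 0.85 (limma, adjusted p = 0.037) on the log2 scale. Its shEZH2 value was higher than that with DZNep by 1.21 (limma, adjusted p = 0.012).

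The list of adenosine and purine salvage enzymes had 15 tested genes, 4 higher and 4 lower with DZNep and 2 lower with shEZH2. NT5E, or CD73, is the ectoenzyme that makes adenosine from AMP outside the cell. Its values were 847 and 1135 in control, 86 and 122 under DZNep, and 417 and 386 in shEZH2 cells, and the groups did not overlap. NT5E fell by 3.32 under DZNep (limma, standard error 0.17, adjusted p = 3.5e-05) and by 1.34 with shEZH2 (limma, adjusted p = 0.0086) on the log2 scale. NT5M, a mitochondrial nucleotidase, was listed at 21 and 15 in control, 2 and 1 under DZNep, and 5 and 6 in shEZH2 cells. NT5M passed the filter on low values through the control samples alone, so these values are given as a description with no test. PNP, which splits purine nucleosides, rose from 138 and 116 to 292 and 303 with DZNep (1.16, adjusted p = 0.0023 from limma), whereas APRT, which salvages adenine such as that released by MTAP, fell from 204 and 180 to 100 and 80 (-1.16, adjusted p = 0.0047 from limma). With shEZH2 the values of PNP and APRT were 0.34 and -0.47, not called. Without control replicate 1 they were 0.55 and -0.30 and without control replicate 2 0.14 and -0.64, and APRT was called in 1 of 16 alternatives (adjusted p 0.038 to 0.64 from limma).

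Other nucleoside transporters and adenosine receptors had 5 of 10 genes in the table, and the filter on low values left 3 of them, so no direction of the list is read from those 3. The 2 left out, named after their values were seen, were ADORA1, at 3 and 2 in control, 10 and 8 under DZNep, and 4 and 3 in shEZH2 cells, and SLC29A3, between 1 and 3 in all samples. ADORA2B, a receptor for extracellular adenosine, had values of 66 and 57 in control, 11 and 16 under DZNep, and 26 and 24 in shEZH2 cells. ADORA2B fell by 2.20 with DZNep (limma, adjusted p = 0.00024) and by 1.31 with shEZH2 (limma, adjusted p = 0.015). SLC29A4 was listed at 21 and 19, 6 and 5, and 9 and 9 in these groups, and passed the filter through the control samples alone, so it is given with no test. SLC29A2, or ENT2, fell with DZNep (-1.34, adjusted p = 0.0048 from limma). Its shEZH2 value, -0.20, was not called and turned to 0.15 without control replicate 1, and it was higher in shEZH2 than in DZNep cells by 1.15 (limma, adjusted p = 0.035). The concentrative transporters SLC28A1, SLC28A2 and SLC28A3 were not listed.

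Methionine transporters had 6 tested genes, with 3 higher with DZNep and 1 with shEZH2. SLC3A2, the heavy chain that carries SLC7A5 to the membrane, rose from 193 and 162 to 575 and 504 under DZNep and to 366 and 390 in shEZH2 cells (1.53 and 1.04 on the log2 scale, adjusted p = 0.0012 and 0.028 from limma). SLC7A5 (0.91, adjusted p = 0.011 from limma) and SLC7A6 (1.04, adjusted p = 0.0068 from limma) rose with DZNep, and their shEZH2 values, 0.37 and 0.36, were not called under any alternative. With a control sample left out, that of SLC7A6 lay between 0.11 and 0.62. The small-molecule methyltransferases, which turn SAM into SAH, had 6 tested genes. With DZNep 1 was higher and 4 lower (42.7% of all tested genes were called), and with shEZH2 1 was higher and 2 lower (8.44%). PEMT, which methylates phosphatidylethanolamine, fell from 86 and 68 to 12 and 9 under DZNep and to 29 and 27 in shEZH2 cells (-2.83 and -1.47, adjusted p = 0.00022 and 0.019 from limma). NNMT, which methylates nicotinamide, rose from 51 and 42 to 80 and 79 under DZNep and to 108 and 123 in shEZH2 cells (0.70 and 1.25, adjusted p = 0.029 and 0.017 from limma), the first call being lost without control replicate 2 (adjusted p = 0.14) or DZNep replicate 1 (0.11). GAMT, of creatine synthesis, fell with DZNep (-1.11, adjusted p = 0.0057 from limma). Its shEZH2 value, -0.72, was not called (adjusted p = 0.081 from limma) but was in 2 of 16 alternatives. AS3MT, the arsenic methyltransferase, was listed at 11 and 16 in control, 2 and 5 under DZNep, and 6 and 5 in shEZH2 cells, and passed the filter through the control samples alone, so it is given with no test.

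**Figure D4:**
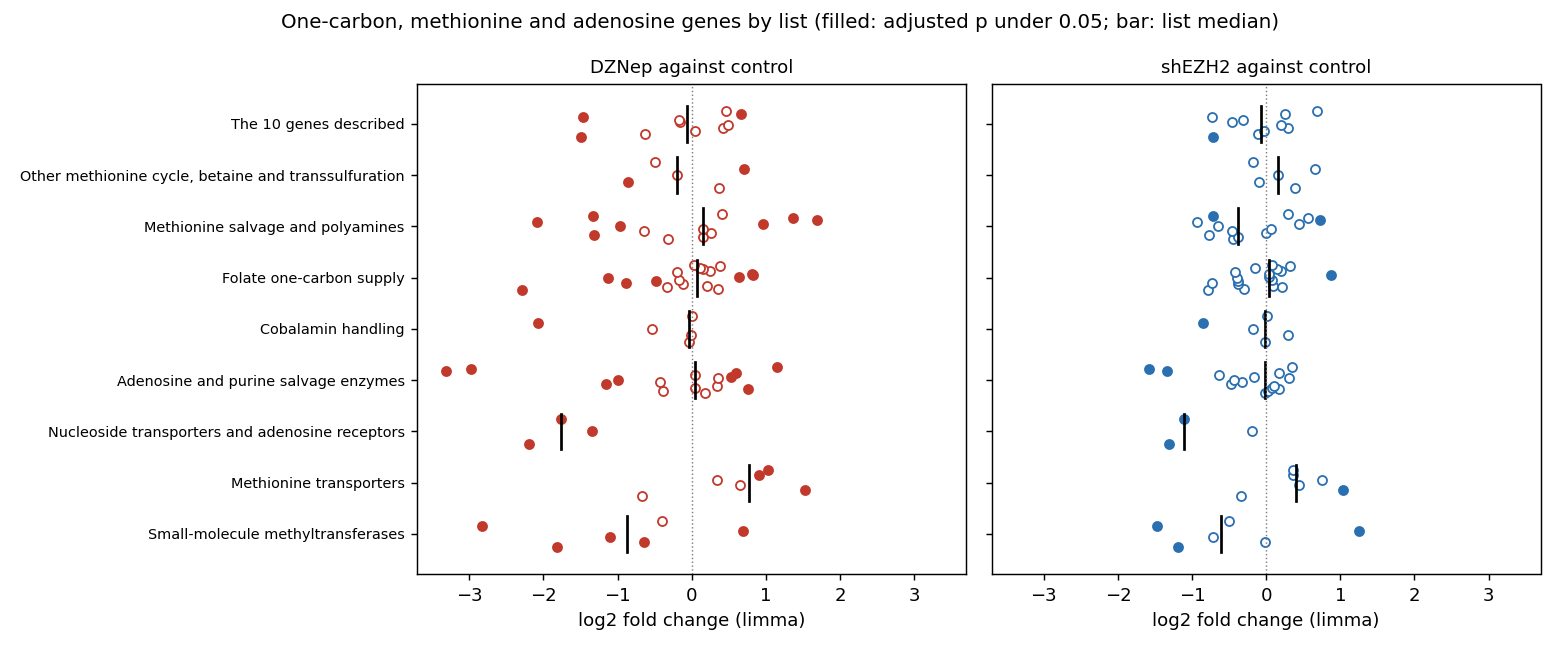
Log2 fold changes against control of the 10 genes and of the 8 further lists, with DZNep on the left and shEZH2 on the right. Each point is a tested gene, filled at an adjusted p under 0.05 from limma, and the black bar is the list median. Genes under the filter on low values are not drawn, and the lowest point of the DZNep panel is NT5E at -3.32.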

How the data were processed

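Expression of 10 genes was analysed in 6 OVCAR8 samples. Per the labels and methods, the authors built stranded libraries after removing ribosomal RNA. Trimming was by fastp, alignment to GRCh38 by STAR and gene quantification by RSEM. The deposited score per gene and sample is a value that the authors scaled to a common total and rounded, although the file is called a count matrix. TPM would have this form, but no source used here says so, and the step that left 14930 genes is not given. TMM factors (unweighted, trimming 30% of log ratios and 5% of mean values at each end) were computed from these values. Genes reaching a value of 10 in 2 or more samples (9671) were fitted with limma 3.58.1 (R 4.3.3; lmFit, eBayes with trend) on log2(value + 1), with all 6 samples in 1 fit of group means, and two-sided p-values were adjusted over all of them. The study's edgeR test needs read counts and was not used. The script was tested on simulated data. Positions, transcripts and motif matches come from GENCODE v44 (GRCh38), with 1 canonical transcript per gene. The members and lists were chosen with earlier results of these data known. From each further list at most 4 called genes with the largest change in either contrast were named. A gene that this rule chose is not reported here. For AHCY and the member with the largest DZNep change, the 3 nearest profiles were named. Alternatives were other scalings, pseudocounts and filters, limma without trend, the groups compared alone, a replicate block, each sample left out, and shEZH2 samples averaged. Figures were drawn with matplotlib 3.10.9.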

Additional observations from a re-analysis of the deposited data

How the results depend on the processing

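Of 480 values (10 genes, 3 contrasts, 16 alternatives), 429 kept their direction and their side of the threshold, 20 lost a call, 22 gained one and 9 changed sign, none of these among called values. The sign changes were AHCYL1 with shEZH2 as deposited (0.023) and with only the groups compared (0.0021), and with a sample left out, MAT2B (-0.35 to 0.025) and MTAP (-0.43 to 0.078) with DZNep, AHCY (-0.34 to 0.11) and AHCYL1 (-0.045 to 0.0034) with shEZH2, and AHCYL1 (-0.092 to 0.0015) and MTAP (-0.40 to 0.14) in the direct comparison. Of the named genes of the wider lists, SLC29A2 with shEZH2 changed sign (-0.54 to 0.15 with a sample left out).

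The number of members called with DZNep (3) was 5 with the values as deposited and 5 with the replicate block, and 2 to 4 with a sample left out. With shEZH2 (1) it was 0 with a filter of 1, with no filter, without the trend and with averaged shEZH2 samples, 2 with only the groups compared, 3 with the replicate block and 0 to 2 with a sample left out. In the direct comparison (1) it was 0 as deposited and with averaged shEZH2 samples, 2 with only the groups compared, 3 with the replicate block and 0 to 2 with a sample left out. Of the 71 further genes, those called with shEZH2 (12) were 23 with the replicate block, 0 with averaged samples and 0 to 16 with a sample left out. Those in the direct comparison (12) were 7 with a filter of 1 or none, 19 with only the groups compared, 30 with the block, 1 with averaged samples and 1 to 19 with a sample left out. Those called with DZNep (36) ran from 28 to 40 with a sample left out. Without shEZH2 replicate 1 or replicate 2 the lone sample is assumed to vary like the other groups. Calls over all 9671 genes moved as well, so these member counts are a description. As deposited they were 4001 with DZNep, 1230 with shEZH2 and 1193 in the direct comparison. With only the groups compared they were 3007, 1554 and 1441. Without the trend 816 were called with shEZH2, and with a filter of 1 it was 737 of 14929 genes. Those with the replicate block are given below.

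Over all genes, 46.3% of shEZH2 calls were higher with TMM, 66.0% as deposited and 43.6% with median-ratio scaling. The labels do not say that replicate numbers pair the samples. Across genes, deviations of same-numbered samples had a correlation of 0.79 for control with DZNep, -0.02 for control with shEZH2 and -0.04 for DZNep with shEZH2. With the replicate block all genes called rose from 4134 to 5419 with DZNep, from 816 to 2765 with shEZH2 and from 899 to 2566 in the direct comparison, and AHCY (adjusted p = 0.0021) and MAT2A (0.018, both from limma) were called with DZNep. Rounding limits AHCYL2 and SLC29A1, and read depth is unknown.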
